A study of Mus musculus with 4 samples.

Results

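The 9 genes described here mark the formative and primed states of pluripotency, and were followed in mouse embryonic stem cells (mESCs), wild-type or labelled as lacking the clock gene Bmal1. They are 7 transcription factor genes (Otx2, Zic2, Zic5, Sox3, Sox4, Foxd3 and Pou3f1), the growth factor gene Fgf5 and the cadherin gene Cdh2. They were chosen by name, as 9 of the 37310 genes in the expression table, where they fill 11 rows because Pou3f1 and Sox4 each have a pair of identifiers. The cells were JM8 mESCs, an established line of the C57BL6/N strain, grown without feeder cells in N2B27 medium with LIF and 2 inhibitors ("2i"), PD0325901 (1 µM, against Mek) and CHIR99021 (3 µM, against Gsk3). Polyadenylated RNA was sequenced from 2 libraries of the wild-type parental line and 2 libraries of a Bmal1-/- line. The second line is 1 clone made with CRISPR/Cas9, with small insertions or deletions in exon 5 of both alleles, so that the genotype and the clone cannot be told apart. Every library of both groups came from cells kept in 2i + LIF, a medium that holds cells in the naive state, so that the genes below were measured in cells that had not been moved towards differentiation.

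Naive mESCs resemble the epiblast of the blastocyst before implantation. When Mek and Gsk3 are no longer inhibited, they switch off naive regulators such as Esrrb and Zfp42 and pass through a formative state, which resembles the epiblast just after implantation, towards a primed state that precedes gastrulation. Otx2 and the POU factor Pou3f1 (Oct6) are early transcription factors of that passage, Fgf5 is its most used marker, and Zic, Sox and Foxd factors are expressed in the epiblast and in the neural plate and neural crest that follow it. Cdh2 encodes N-cadherin, which joins or replaces E-cadherin as epiblast cells leave the naive state.

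Values are read counts scaled by the trimmed mean of M values (TMM), and a difference is given as a log2FC, the log2 fold change of Bmal1-/- over wild-type on the log2(value + 1) scale, with its standard error (SE) and an adjusted p from limma over all genes tested. Between 21504265 and 23329034 reads fell on genes in each library, and 3 reads correspond to a value of 2.82 to 3.19. The gene that was targeted, Arntl (Bmal1), still had reads in all libraries, at 678 and 733 in wild-type and 556 and 590 in Bmal1-/- libraries (log2FC −0.30, SE 0.07, adjusted p = 0.0011). Since its level is no clear check of the label, these are called the mutant-labelled libraries. All 16 genes of a naive pluripotency list passed the filter on low values, among them Nanog between 22379 and 27127, and Pou5f1, which naive and primed cells share, lay between 26483 and 29164. At an adjusted p under 0.05, 52.6% of the 14510 genes tested were called, with 3488 higher and 4151 lower. With all libraries scaled to equal totals the same test gave 4203 higher and 3193 lower. A further demand of over 2-fold left 7.21% of genes.

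Of the 9 genes, 6 passed the filter, a mean value of 10 or more, and were tested. An adjusted p under 0.05 was reached by 5 of these 6, beside 52.6% of all genes tested, namely by Sox3 and Foxd3, which rose (24% of all genes were called higher), and by Zic2, Zic5 and Cdh2, which fell (28.6% lower). In RNA from whole cultures fewer cells of a type and less RNA per cell cannot be told apart. Sox4 was tested and not called. Otx2 and Fgf5 lay below the filter, as did Pou3f1, whose value of 0 is described below. Of these 5, Sox3 also changed by over 2-fold, upwards, as 5.75% of all genes did, and none fell that far, as 1.45% did. In DESeq2, with no filter and in limma without a variance trend, the calls numbered 3, Zic2, Sox3 and Cdh2 each time. They were 3 of the 6 tested, or of 8 with no filter. Of all genes tested, 5226 of 14510 were called in DESeq2, 5636 of 23598 with no filter and 5060 of 14510 without the trend. The median log2FC of the 6 was 0.012, beside −0.030 for all genes tested. The wild-type and mutant-labelled values did not overlap for 5 of the 6, beside 76% of all genes tested.

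**Figure D1:**
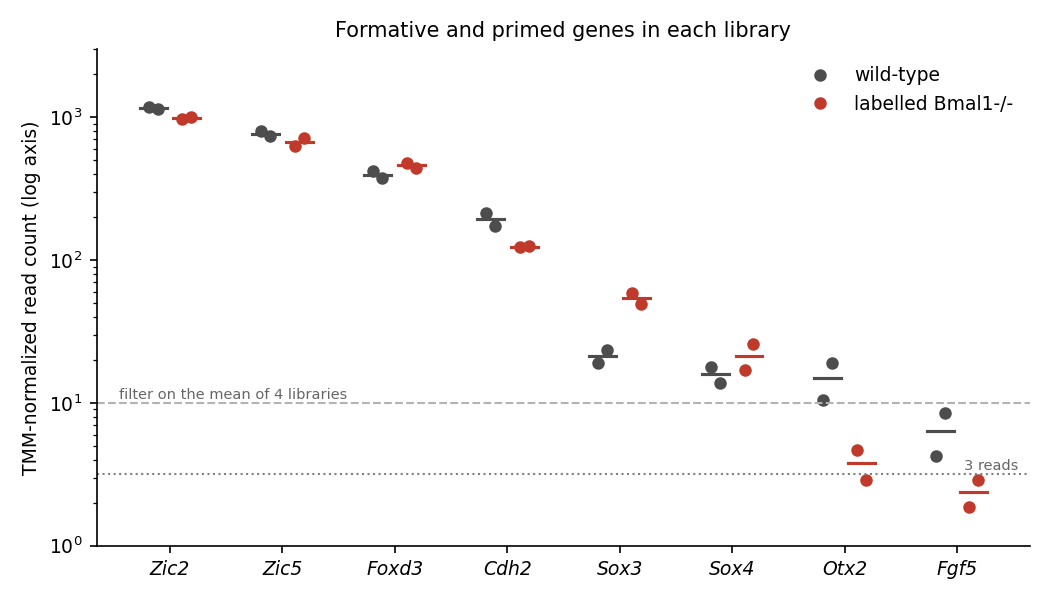
Deposited TMM-normalized read count (log axis) of 8 of the genes in each library. Grey points are the 2 wild-type libraries, red points the 2 libraries labelled Bmal1-/-, and short bars the group means. The dashed line is the filter at a mean of 10 and the dotted line the value of 3 reads. Pou3f1, at 0 in all libraries, cannot be drawn on this axis. Sox3 is the gene whose red points stand clearly above its grey ones, and Otx2 has its 4 points between 2.86 and 19.1.

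Levels of different genes were compared per kb of exonic sequence that no other gene shares, as the mean of the 4 libraries. They ran from 1.74 for Fgf5 to 257 for Zic2. Zic2, Foxd3 (188) and Zic5 (148) were the high ones, at percentiles 77.5, 73.0 and 69.4 of the 22333 genes with reads and at least 200 such bases. Cdh2 (19.8) and Sox3 (18.3) lay near the middle, and Sox4 (8.53), Otx2 (2.74) and Fgf5 (1.74) in the lower part. Over all exonic bases, shared ones included, Sox4 was at 3.31 in wild-type and 4.45 in mutant-labelled libraries. Zic2, Zic5 and Foxd3 were thus measured from many reads in naive culture, and Otx2 and Fgf5 from few. The neighbours Cdh2 and Sox3 stood in opposite order in the 2 groups: per kb, Cdh2 was at 24.1 and Sox3 at 10.3 in wild-type libraries, and at 15.4 and 26.4 in the mutant-labelled ones.

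Promoter windows of 250 bases before to 50 bases after a transcription start were taken from RefSeq (build GRCm38.p6), which gave 8 windows for 5 of the genes, 4 of them for Otx2. They were searched on both strands for the E-box CACGTG, which the Clock and Bmal1 pair is known to bind, for TAATCC, the core that Otx homeodomains bind, and for CATTGT, a Sox core. The first 2 sequences below are those with a match, printed 5′ to 3′ on the gene's strand with the match in capitals. The third is the Sox4 window, shown as one with no match.
Foxd3, chr4:99656049-99656348, plus strand: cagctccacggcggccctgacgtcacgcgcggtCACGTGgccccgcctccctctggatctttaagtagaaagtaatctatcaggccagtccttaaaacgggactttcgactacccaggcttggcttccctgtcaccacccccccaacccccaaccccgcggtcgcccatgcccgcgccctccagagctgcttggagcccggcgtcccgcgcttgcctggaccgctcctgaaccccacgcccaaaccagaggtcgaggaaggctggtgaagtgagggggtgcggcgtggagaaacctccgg
Otx2, chr14:48665060-48665359, minus strand: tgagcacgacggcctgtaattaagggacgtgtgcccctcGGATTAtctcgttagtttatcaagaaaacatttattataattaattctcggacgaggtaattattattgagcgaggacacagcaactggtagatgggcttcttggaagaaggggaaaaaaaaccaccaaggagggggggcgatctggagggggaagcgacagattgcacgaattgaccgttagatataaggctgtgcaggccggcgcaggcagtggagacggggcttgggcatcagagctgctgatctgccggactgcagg
Sox4, chr13:28953650-28953949, minus strand: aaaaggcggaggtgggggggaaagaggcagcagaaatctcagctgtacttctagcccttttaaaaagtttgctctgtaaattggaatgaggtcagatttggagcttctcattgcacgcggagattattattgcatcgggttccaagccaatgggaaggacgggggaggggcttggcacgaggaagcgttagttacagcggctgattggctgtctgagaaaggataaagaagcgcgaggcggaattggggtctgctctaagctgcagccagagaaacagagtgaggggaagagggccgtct
In the Foxd3 window CACGTG begins 217 bases before the start. In this Otx2 window the match is GGATTA, which is TAATCC read on the other strand, and it begins 211 bases before the start. Neither motif overlaps another match. CACGTG is found in 7.15% of all 32851 windows of this kind, TAATCC in 7.06% and CATTGT in 12.6%, the last in none of the 8. The other windows are those of Fgf5 and Zic5 and 3 of Otx2. Sox3, Zic2 and Pou3f1 have no entry there, and a Cdh2 window was not used here.

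Otx2 (ENSMUSG00000021848, chr14:49277354-49287319, minus strand, in mm9 as for all gene positions below) encodes a homeodomain factor that redirects Oct4 to formative enhancers and later patterns the forebrain. The wild-type values were 10.5 and 19.1, and the mutant-labelled values 4.70 and 2.86. The groups did not overlap, but these values stand for 10 and 18 reads against 5 and 3. The mean over all libraries, 9.30, put it just under the filter. Summed over the libraries of a group, 28 reads stood against 8, which after scaling is 25.6% of wild-type, with an exact 95% interval of 10.1% to 57.6% that covers counting error only. With the filter lowered to a mean of 1, limma gave a log2FC of −1.70 (SE 0.44, 95% interval −2.76 to −0.64, adjusted p = 0.026). In 7 of the 14 alternatives around this setting the adjusted p stayed under 0.05. It was 0.062 with no filter, 0.095 in DESeq2 and 0.089 in limma without a variance trend. Leaving out any 1 library also ended the call, with an adjusted p of 0.055 and 0.13 without wild-type replicates 1 and 2, and of 0.16 and 0.23 without Bmal1-/- replicates 1 and 2.

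The other genes of the Otx family gave different values. Crx, best known as the photoreceptor member, rose from 33.7 and 47.8 to 124 and 138, a log2FC of 1.68 (SE 0.19, adjusted p = 2.7e-07), and was called in 15 of 15 alternatives. Otx1, which acts with Otx2 in the developing brain, had 50.6 and 45.7 against 66.7 and 48.6, a log2FC of 0.24 (95% interval −0.20 to 0.68, adjusted p = 0.35). Otx1 was called in none of its 15 alternatives.

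Fgf5 (ENSMUSG00000029337, chr5:98683203-98706049, plus strand) encodes a secreted fibroblast growth factor made by the postimplantation epiblast. Wild-type values of 4.21 and 8.50 stood against mutant-labelled values of 1.88 and 2.86, from 4, 8, 2 and 3 reads. The groups did not overlap. The mutant-labelled reads were 37.3% of wild-type after scaling, with an exact 95% interval of 10.3% to 114%. With the filter at a mean of 1 the log2FC was −1.08 (SE 0.49, 95% interval −2.27 to 0.11, adjusted p = 0.14). A change in Fgf5 was not detectable at this depth, and the interval holds values from a large decrease to none. Fgf4, the Fgf that naive cells make themselves, fell slightly, from 5528 and 5743 to 5082 and 5261 (log2FC −0.12, adjusted p = 0.016). That call was lost in 7 of 16 alternatives, among them without wild-type replicate 2 (adjusted p = 0.076) and without Bmal1-/- replicate 1 (adjusted p = 0.15).

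Pou3f1 encodes a POU factor of the formative epiblast, later of Schwann cells and neurons. The table lists it at 0 in all 4 libraries under both of its identifiers. The protein-coding entry (ENSMUSG00000078236, chr4:124334896-124337899) and the pseudogene entry (ENSMUSG00000090125, chr4:124334889-124337899) lie on each other on the same strand. Only 1 of the 3004 exonic bases of the first and 7 of the 3010 of the second are free of the other, so that nearly every read from the locus falls on both entries. Over the whole table, 145 genes of at least 200 exonic bases share all of them with another gene on the same strand, and all 145 are at 0. Of the 25220 genes of that size that share none, 32.3% are at 0. Of 412 genes of that size with under 100 bases free of others on either strand, 391 are at 0. The 0 of Pou3f1 therefore cannot be read as a lack of its RNA. Of the other Pou3f genes only Pou3f3, a factor of brain and kidney, passed the filter. It had 27.4 and 20.2 against 16.9 and 13.4, with a log2FC of −0.61 (95% interval −1.29 to 0.064, adjusted p = 0.12). Pou3f2 had values of 3.76 to 9.54, and Pou3f4 had no more than 3 reads in any library.

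**Figure D2:**
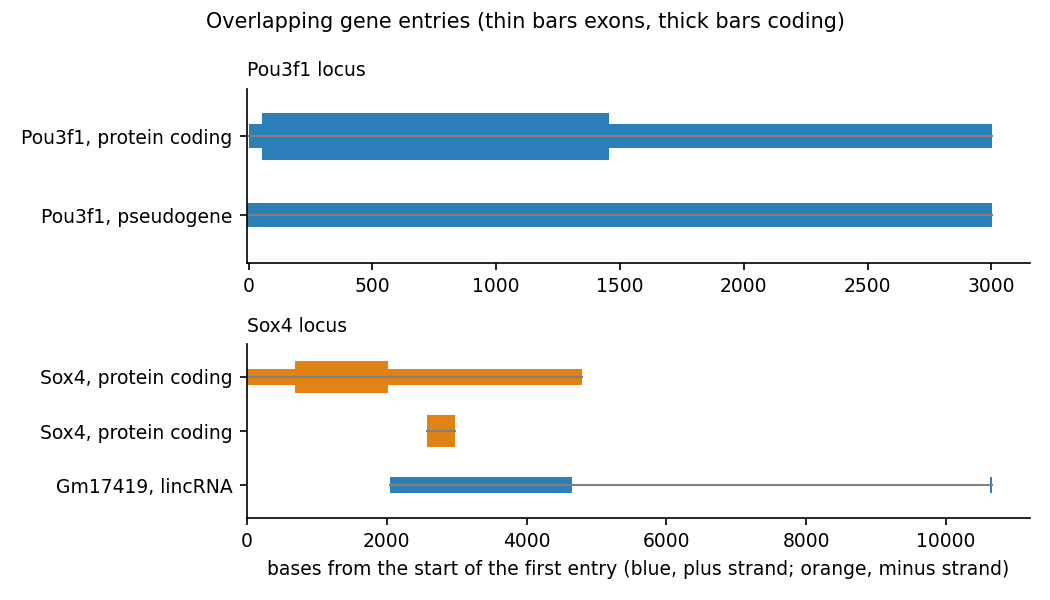
Gene entries at the Pou3f1 and Sox4 loci, drawn to scale in bases from the start of the protein-coding entry, with exons as thin bars and coding sequence as thick bars. Blue entries are on the plus strand and orange ones on the minus strand. The 2 Pou3f1 entries cover each other, the long Gm17419 exon covers most of Sox4 beyond its coding sequence, and the short second Sox4 entry lies inside the first.

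Zic2 and Zic5 encode zinc finger factors that sit on epiblast enhancers and later act in the closing of the neural tube. They form a divergent pair on chromosome 14, with 9704 bases between their starts. Zic2 (ENSMUSG00000061524, chr14:122874604-122879074, plus strand) was at 1188 and 1137 in wild-type and at 971 and 1002 in mutant-labelled libraries. It fell to 84.9% of wild-type, a log2FC of −0.24 (SE 0.06, 95% interval −0.35 to −0.12, adjusted p = 0.0015), and the call held in 16 of 16 alternatives. Zic5 (ENSMUSG00000041703, chr14:122856017-122864899, minus strand) had 801 and 739 against 632 and 716. It fell to 87.5% (log2FC −0.19, SE 0.07, adjusted p = 0.028). The groups did not overlap for either gene, but the higher mutant-labelled value of Zic5 lay closer to the lower wild-type value than the wild-type values lay to each other.

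The Zic5 call was lost in 8 of 16 alternatives. Scaling to equal totals gave a log2FC of −0.13 (adjusted p = 0.12) and DESeq2 −0.16 (adjusted p = 0.24). Without Bmal1-/- replicate 1 it was −0.10 (adjusted p = 0.36), and without wild-type replicate 1 it was −0.14 (adjusted p = 0.14). Zic1 and Zic4 had no more than 3 reads in any library.

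Sox3 (ENSMUSG00000045179, chrX:58144545-58146605, minus strand) is an X-linked gene of the SoxB1 family, to which Sox2 also belongs, and is known from the epiblast and the neural plate. Wild-type values were 19.0 and 23.4 and mutant-labelled values 59.2 and 49.6, from 18, 22, 63 and 52 reads. Both mutant-labelled values lay above both wild-type values. It rose to 250% of wild-type, a log2FC of 1.32 (SE 0.25, 95% interval 0.81 to 1.84, adjusted p = 1.4e-04). The call held in 15 of 15 alternatives, with log2FC values of 1.05 to 1.47. On recovered whole reads edgeR gave 1.38 (adjusted p = 3.1e-05) and DESeq2 1.39 (adjusted p = 0.0044).

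Sox2, the SoxB1 gene of the core pluripotency network, had 6071 and 5781 against 5129 and 5416. Its log2FC was −0.17 (SE 0.04, adjusted p = 0.0024), a small fall that was lost in 3 of 16 alternatives, among them without Bmal1-/- replicate 1 (adjusted p = 0.065). Sox21, a SoxB2 gene that opposes SoxB1 activity in neural progenitors, had 78.0 and 91.4 against 61.1 and 68.7 (log2FC −0.38, 95% interval −0.74 to −0.016, adjusted p = 0.074). Sox14 had at most 1 read in a library. Sox3 was thus the only SoxB gene of the 3 tested to rise.

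Sox4 (ENSMUSG00000076431, chr13:29040788-29045582, minus strand) is a SoxC gene, a group active in progenitors of many tissues and in the gain of mesenchymal traits. Wild-type values were 17.9 and 13.8 and mutant-labelled values 16.9 and 25.7, so that the groups overlapped. The log2FC was 0.39 (SE 0.34, 95% interval −0.32 to 1.09, adjusted p = 0.35), and no alternative brought it under 0.05. It ran from 0.065 under quantile normalization to 0.68 without Bmal1-/- replicate 1. Only 2179 of its 4795 exonic bases (45.4%) are free of other genes, because the antisense lincRNA entry Gm17419 and a second Sox4 identifier of 405 bases (ENSMUSG00000078309) lie across the rest. Both of these are at 0 in all libraries, as are all of the 112 genes whose bases are all shared once both strands are counted but not on their own strand alone. Whether reads on the shared bases are part of the Sox4 values was not tested. The other SoxC genes are Sox11, with 185 and 154 against 170 and 154 (log2FC −0.060, 95% interval −0.32 to 0.20, adjusted p = 0.71), and Sox12. Sox12 fell from 743 and 822 to 624 and 661, a log2FC of −0.28 (SE 0.07, adjusted p = 0.0016), a call lost with no filter (adjusted p = 0.056) and without the variance trend (adjusted p = 0.065).

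Foxd3 (ENSMUSG00000067261, chr4:99322990-99325362, plus strand), whose promoter window with the E-box is printed above, encodes a forkhead factor. It is needed to keep the epiblast and embryonic stem cells and later marks premigratory neural crest. Values of 418 and 377 in wild-type stood against 479 and 445 in mutant-labelled libraries, with no overlap. It rose to 116% of wild-type, a log2FC of 0.22 (SE 0.08, 95% interval 0.05 to 0.39, adjusted p = 0.031). This was called in 9 of 16 alternatives. It was not called in DESeq2 (adjusted p = 0.12) or with no filter (0.12), nor without wild-type replicate 2 (0.14, adjusted p = 0.19), Bmal1-/- replicate 1 (0.16, adjusted p = 0.24) or Bmal1-/- replicate 2 (0.27, adjusted p = 0.052). A miRNA entry shares 89 of its 2373 exonic bases. Its relative Foxd1, known from kidney stroma and forebrain, rose from 42.1 and 42.5 to 109 and 118. The log2FC of Foxd1 was 1.40 (SE 0.17, adjusted p = 1.1e-06), called in 15 of 15 alternatives. Foxd2 had values of 5.31 to 9.54, and Foxd4 had no read.

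Cdh2 (ENSMUSG00000024304, chr18:16747386-16967755, minus strand) was at 215 and 174 in wild-type and at 123 and 126 in mutant-labelled libraries. The mutant-labelled pair lay close together and well below both wild-type values. It fell to 64.5% of wild-type, a log2FC of −0.63 (SE 0.13, 95% interval −0.90 to −0.37, adjusted p = 3.3e-04). The call held in 16 of 16 alternatives, the log2FC being −0.48 once wild-type replicate 1 was left out and −0.78 once wild-type replicate 2 was. Cdh1, which encodes the E-cadherin of naive colonies, had 18928 and 18054 against 20234 and 20098. It rose by a small amount (log2FC 0.13, SE 0.04, adjusted p = 0.0085), a call lost in 4 of 16 alternatives, among them without wild-type replicate 2 (adjusted p = 0.053) and without Bmal1-/- replicate 1 (adjusted p = 0.065).

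Among 11 classical cadherins and catenins, the adhesion proteins and their cytoplasmic partners, 9 were tested, of which 3 rose and 3 fell, or 66.7% called beside 52.6% of all genes. Cdh4 (R-cadherin) rose from 204 and 209 to 304 and 294 (log2FC 0.53, adjusted p = 1.1e-04), and Ctnna1 (alpha-catenin) by 0.14 (adjusted p = 0.0032). The Ctnna1 call held in 14 of 16 alternatives. It was lost in limma without a variance trend (adjusted p = 0.10) and without Bmal1-/- replicate 2, where the log2FC was 0.13. Besides Cdh2, the fallers were Ctnnd2 (delta-catenin, −0.53, adjusted p = 2.3e-04) and Jup (plakoglobin, −0.44, adjusted p = 2.5e-07). Cdh3, Ctnnb1 and Ctnnd1 did not pass. Cdh1 and Cdh2 therefore moved in opposite directions.

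**Figure D3:**
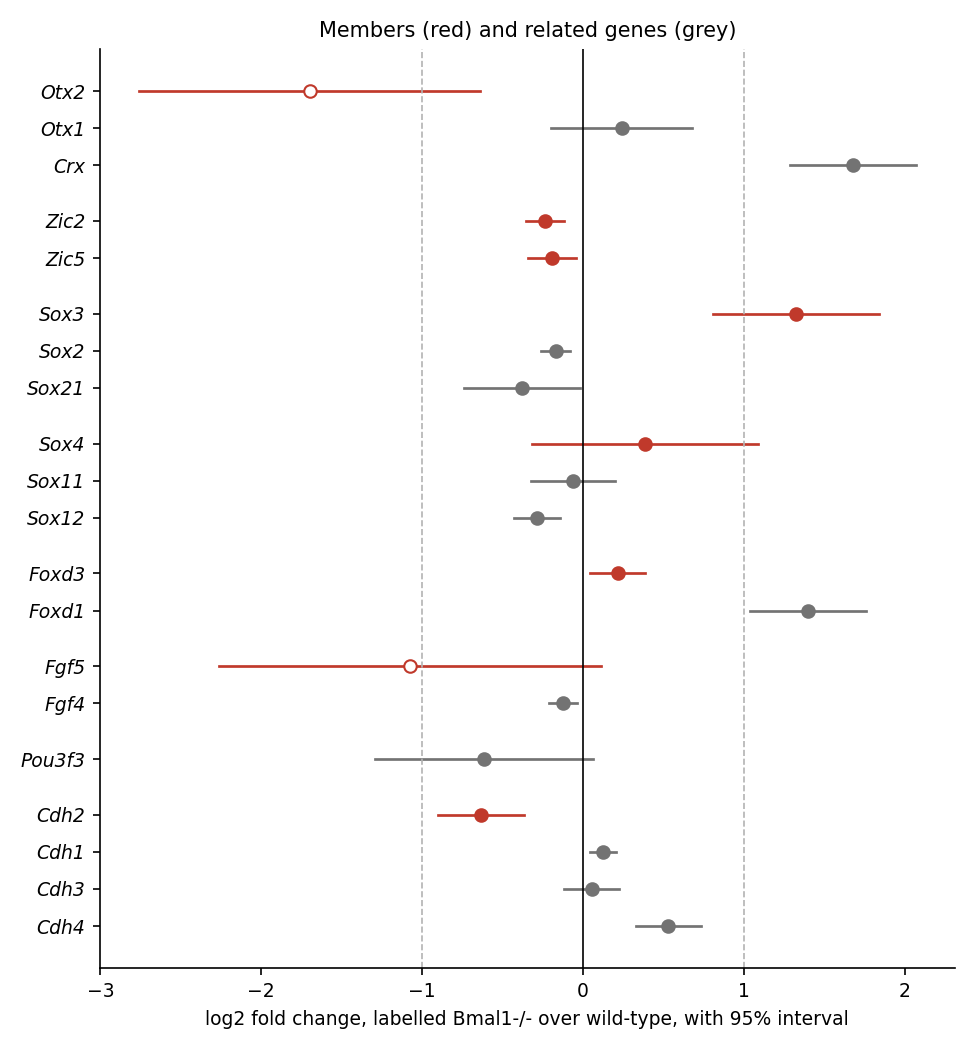
Log2 fold change (labelled Bmal1-/- over wild-type, limma on log2(value + 1)) with its 95% interval for 8 of the genes, in red, and for related genes, in grey, grouped by family. Filled points passed the filter at a mean of 10. The open points of Otx2 and Fgf5 come from the fit with a mean of at least 1, and dashed lines mark a 2-fold change. Sox3, Crx and Foxd1 lie to the right of the 2-fold line, and Zic2 and Zic5 lie close together just left of 0.

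The wider set of formative and primed genes moved in both directions. Of 20 further genes of that state, 17 were tested, 3 rose and 7 fell, and the median log2FC was −0.096. The share called, 58.8%, was near the 52.6% of all genes tested. Car14 lay below the filter, with 2 and 2 reads in wild-type and 7 and 8 in mutant-labelled libraries. With the filter at a mean of 1, limma gave it a log2FC of 1.38 (adjusted p = 0.041). Of the 17 genes tested, 2 changed by over 2-fold, Lef1 and Grhl2, beside 7.21% of all genes tested. Lef1, a nuclear partner of beta-catenin, fell from 191 and 131 to 70.5 and 64.8 (log2FC −1.21, SE 0.17, adjusted p = 4.6e-06). Grhl2, a grainyhead factor that opens epithelial enhancers as cells leave the naive state, rose from 56.9 and 45.7 to 112 and 114 (1.13, SE 0.17, adjusted p = 1.4e-05). Lef1 had −0.94 without wild-type replicate 1 and Grhl2 0.98 without wild-type replicate 2, both still called but under 2-fold.

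The following genes of the same list were named after their values were seen. Utf1, a chromatin factor of the epiblast, fell from 1314 and 1304 to 731 and 685 (log2FC −0.89, adjusted p = 1.2e-10). The Nodal antagonists Lefty1 (−0.73, adjusted p = 1.7e-08) and Lefty2 (−0.48, adjusted p = 2.7e-08) fell too, while Nodal itself had 0.064 (adjusted p = 0.29). The 2 de novo DNA methyltransferases went opposite ways: Dnmt3a rose from 793 and 774 to 1175 and 1179 (0.59, adjusted p = 4.4e-08) and Dnmt3b fell from 2631 and 2421 to 2063 and 2160 (−0.26, adjusted p = 2.2e-04). The Dnmt3b call was lost in 1 of 16 alternatives, limma without a variance trend (adjusted p = 0.061).

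Regulators of the exit from naive pluripotency showed no common direction. Of 14 tested, 4 rose and 4 fell, none by over 2-fold, and the median was 0.0058. The share called, 57.1%, was again near the 52.6% of all genes. Rbpj, the DNA-binding partner of Notch, rose from 2595 and 2547 to 3746 and 3891 (log2FC 0.57, adjusted p = 1.2e-09). Tfe3, a factor whose nuclear form holds cells in the naive state, fell from 2369 and 2291 to 1562 and 1565 (−0.58, adjusted p = 4.0e-09). The receptor gene Fgfr2 fell from 39.0 and 34.0 to 21.6 and 20.0 (−0.78, adjusted p = 0.018), a call lost in 5 of 15 alternatives, among them without wild-type replicate 1 (adjusted p = 0.085) and without Bmal1-/- replicate 1 or 2 (0.053 and 0.090). Tcf7l1, the repressor through which Gsk3 inhibition acts on naive genes, had −0.031 (adjusted p = 0.62).

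Naive genes, read beside these, rose in 7 cases and fell in 6 of 16 tested, with a median of 0.015 and no change over 2-fold. That is 81.2% called, beside 52.6% of all genes. Without the variance trend 6 of the 16 were called, 5 higher and 1 lower, beside 5060 of all 14510 genes. Dppa3 fell most, from 1148 and 1157 to 601 and 590 (log2FC −0.95, adjusted p = 5.4e-11). Tfcp2l1 (0.40, adjusted p = 2.4e-07) and Tbx3 (0.36, adjusted p = 9.5e-07) rose most. Of the genes kept as a check of the cell type, Nanog (0.25) and Klf4 (0.16) rose and Esrrb (−0.14), Zfp42 (−0.14) and Pou5f1 (−0.13) fell, all by small amounts. Of these 5 calls only that of Nanog held in 16 of 16 alternatives. Zfp42 was not called without wild-type replicate 2 (adjusted p = 0.050) or Bmal1-/- replicate 2 (adjusted p = 0.055), nor Klf4 without Bmal1-/- replicate 2 (adjusted p = 0.052). Of 7 genes tested that naive and primed cells share, 1 rose and 4 fell (71.4% called), and Lin28a, an RNA-binding protein gene, fell from 1693 and 1560 to 563 and 535 (−1.57, adjusted p = 2.7e-14).

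**Figure D4:**
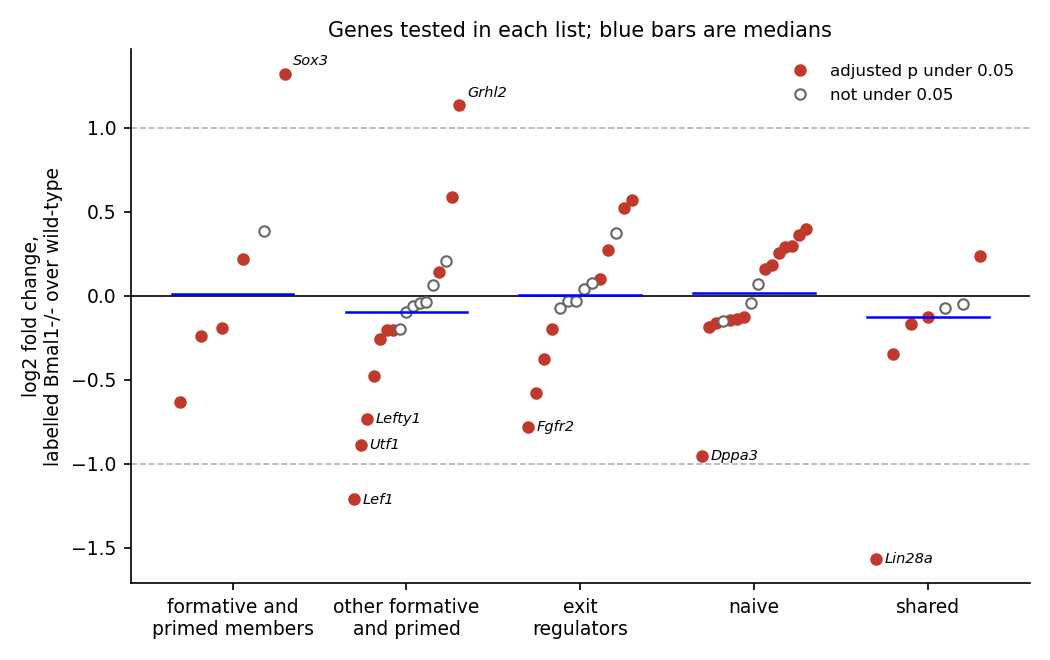
Log2 fold change (labelled Bmal1-/- over wild-type) of each gene tested in 5 lists, ordered by size within a list. Red points had an adjusted p under 0.05, open points did not, blue bars are list medians and dashed lines mark 2-fold. The medians lie between −0.13 and 0.015, with red points on both sides of 0 in every list, and genes beyond 0.7 are named.

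Several of the genes are also made by cells of other lineages. Sox3, Otx2, Zic2, Zic5 and Cdh2 belong to neural progenitors as well. Of 10 neural markers 4 were tested and 3 fell, all by over 2-fold: Pax6 (log2FC −1.71), Map2 (−1.44) and Tubb3 (−1.22). Of all genes tested 28.6% were called lower, and 1.45% were also past 2-fold. The list summed to 3992 and 3739 against 2194 and 2066, Nes (nestin) had −0.082 (adjusted p = 0.25), and Dcx and Fabp7 had no read. Of 10 gastrulation and mesendoderm markers 5 were tested and 2 fell, Eomes (−0.83) and Evx1 (−0.80, with an adjusted p of 0.052 without Bmal1-/- replicate 2), with sums of 646 and 609 against 462 and 434 and no read of Cer1. The share called was 75% of the neural and 40% of the gastrulation genes tested, beside 52.6% of all genes. The part of cells of these lineages in the values of Otx2, Sox3, Cdh2, Zic2 and Zic5 was not tested.

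Of 6 neural crest markers, a lineage that also carries Foxd3 and Sox4, 4 were tested and 1 rose, Snai2 (0.87, adjusted p = 0.035, lost in 7 of 15 alternatives, with 0.14 without wild-type replicate 2 and 0.16 and 0.12 without Bmal1-/- replicates 1 and 2). The list summed to 133 and 114 against 160 and 128, so that the groups overlapped, with Sox10 at no more than 4 reads in any library and Tfap2b without a read. Of 8 fibroblast markers, which bear on Cdh2, 3 were tested and 2 rose, Pdgfrb by 1.48 and Thy1 by 0.59. Col1a1, also tested, had 0.39 and was not called. The other 5 had no more than 3 reads in any library, and Dcn had no read. The list sums, 144 and 156 against 315 and 332, thus rest almost wholly on the 3 genes tested. The Thy1 call (adjusted p = 0.026) was lost in 8 of 15 alternatives, with 0.18 in DESeq2, 0.13 without wild-type replicate 1, and 0.057 and 0.19 without Bmal1-/- replicates 1 and 2. The share called was 25% of the neural crest and 66.7% of the fibroblast genes tested, beside 52.6% of all genes. The part of cells of these lineages in the values of Cdh2, Foxd3 and Sox4 was not tested.

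Of 8 primitive endoderm markers 5 were tested, 3 rose and 1 fell, with sums of 645 and 611 against 764 and 726. Sox17 had 1.27 and Sox7 −2.41 there. Of 7 trophoblast markers 3 were tested and 2 fell, Tfap2c (−1.36) and Cdx2 (−0.74, not called in DESeq2, adjusted p = 0.096). Krt8 had 0.15 and was not called. The list summed to 1710 and 1739 against 861 and 838, with no read of Tpbpa. The lower sums rest mostly on Tfap2c, since the mean of Cdx2 was under 100. The share called was 80% of the primitive endoderm and 66.7% of the trophoblast genes tested, beside 52.6% of all genes. Of 8 markers of cells that resemble the 2-cell embryo, 6 were found in the table and all 4 tested rose, Zscan4c by 3.79, Zscan4f by 3.69, Zscan4d by 3.50 and Usp17la by 3.48. These genes have near-identical copies among which reads can be split, so single values are uncertain, and the list summed to 138 and 183 against 2007 and 1985. Sox3, Foxd3, Crx and Foxd1 were also called higher, as were 24% of all genes tested. The part of such cells in the values of these 4 genes was not tested.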

How the data were processed

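Paired reads of mRNA were aligned to mouse mm9 by the authors (bcl2fastq 2.18.0.12, cutadapt 1.9.1 and STAR 2.5.2b, per the labels), and gene counts were scaled with TMM in NOISeq. The counting tool and its strand setting are not given in the sources used here. The deposited values are this TMM-scaled signal for 37310 genes, with GENCODE vM1 identifiers. Every value (100%) was a whole multiple of the value of 1 read, within 0.01, so whole reads were recovered. The 9 genes and all gene lists were chosen with earlier results of these data known, and the settings that combine a mean of at least 1 with another choice, for Otx2 and Fgf5, were added after seeing the data.

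The test was limma 3.58.1 (R 4.3.3) on log2(value + 1), with a variance trend and Benjamini-Hochberg adjustment over the 14510 genes with a mean of at least 10, calling an adjusted p under 0.05. Alternatives were edgeR 4.0.16 (quasi-likelihood) and DESeq2 1.42.0 on recovered reads, other scalings, filters and pseudocounts, a replicate block and leaving out each library. On simulated data of this comparison (14510 genes, 200 of them changed) limma recovered 88% of 2-fold and 100% of 4-fold changes, with 12 false calls among 14310 genes. DESeq2 recovered 75% and 87%, with 2 false calls. Far fewer genes were changed there than were called in the data, so these rates need not carry over. Replicate libraries differed beyond sampling noise (chi-square per degree of freedom 2.95 in wild-type and 1.94 in Bmal1-/-). The methods call them biological replicates of 1 line each, so p-values measure the spread within a line. All 9 genes were named; of other lists, genes past 2-fold, or else the 3 most changed, and relatives, 1 of which is not reported here. Intervals on reads cover counting error only.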

Additional observations from a re-analysis of the deposited data

How the results depend on the processing

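Of the alternative values for the 8 genes with reads, 99 kept their direction and their side of the threshold, 22 lost the call, none changed direction in a call, and for 1, Fgf5 in DESeq2, no adjusted p was given. For the other listed genes 1409 stayed on their side of the threshold, 99 lost and 19 gained a call, and 1 turned in a call. That was Trim28, with −0.047 and, under quantile normalization, 0.091. Values called in neither fit were counted as unchanged even where the sign differed. With all libraries in, Klf2 ran from −0.040 to 0.021 and Otx1 from −0.010 to 0.30. The genes called numbered 7639, and 5060 in limma without a variance trend. Those also past 2-fold numbered 1046 (835 higher, 211 lower), 318 with a mean of at least 100, and 593 higher and 384 lower under quantile normalization. Of the 9 genes, 5 were called, 3 with no filter, without the trend or in DESeq2, and 3 to 4 with 1 library left out. Past 2-fold was 1 gene, 2 with a mean of at least 1 (with Otx2) and 0 with a mean of at least 100. Their median, 0.012, was −0.21 with no filter or a mean of at least 1 or 100, −0.043 under quantile normalization, and −0.080 to 0.078 with 1 library left out. Without the trend, 6 other formative, 6 naive and 5 exit genes were called, in place of 10, 13 and 8, and with no filter 5 exit genes. The causes of these differences were not tested.

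The labels give both groups the same experiment numbers, but libraries with the same number did not deviate together (correlation −0.020), so the number was not taken as a pairing. With the replicate block 7949 genes were called, 1056 also past 2-fold, with 5 of the 9 genes, 1 past 2-fold, a median of 0.012, and 10 other formative, 13 naive and 8 exit genes. At the depth of these libraries, genes such as Otx2 and Fgf5 rest on 2 to 18 reads, which limits what can be said of them.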
